A study of Rattus norvegicus with 12 samples.

Results

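Calca is the gene of calcitonin gene-related peptide (CGRP), and its level was compared here in the rat between dorsal root ganglia (DRG) and trigeminal ganglia (TG). It was taken as the count row with the Ensembl identifier ENSRNOG00000011130, which is 1 of the 32662 gene rows in each count table. The pairing of this identifier with the name Calca came with the choice of the gene, because the tables list identifiers only. The 12 libraries of poly(A)-selected RNA came from 6 untreated male Wistar Han rats, an outbred strain, at 10 weeks of age, killed 2 weeks after they arrived. Each rat gave 1 TG and 1 DRG library, and every animal was anaesthetised with pentobarbital and lidocaine and perfused with cold saline before dissection. RNA was extracted from the dissected ganglia without sorting of cells in the protocol, so neurons, glia, vessels and connective tissue were measured together. The labels name no spinal level for the DRG.

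CGRP is a neuropeptide that widens blood vessels and is released from the endings of sensory neurons. In TG and DRG it is made mainly by peptidergic nociceptors, the pain-sensing neurons that also respond to nerve growth factor, and drugs that block CGRP or its receptor are used against migraine. TG neurons serve the face, the head and the meninges, and DRG neurons serve the trunk, limbs and viscera. The Calca transcript can be spliced to encode either CGRP or the hormone calcitonin, and neurons mostly make the CGRP form. Counts per gene add both forms together. A closely related gene, Calcb, encodes a second CGRP, and reads that align to both genes are left out of the counts when they have no unique place. Calcb, the CGRP receptor subunits and the markers of neuron and glial types were not analysed here, because no table used here pairs their names with the identifiers.

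The promoter of Calca is shown because the CGRP and calcitonin transcripts counted together start from it. The window comes from RefSeq, build GRCr8, chr1:178317480-178317779 on the minus strand, and is 300 bases long with a GC content of 58.0%. It runs from upstream of the annotated start of the gene to shortly after it, and is written 5′ to 3′ with the motif matches in capitals.

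Calca: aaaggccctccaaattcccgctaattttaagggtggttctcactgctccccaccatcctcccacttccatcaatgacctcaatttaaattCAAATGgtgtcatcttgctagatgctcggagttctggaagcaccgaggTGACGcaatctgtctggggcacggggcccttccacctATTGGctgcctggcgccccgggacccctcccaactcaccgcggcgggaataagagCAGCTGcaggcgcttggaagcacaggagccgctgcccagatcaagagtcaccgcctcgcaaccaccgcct

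The motifs searched were 6 in number, each on both strands. The E-box CANNTG, a site for helix-loop-helix factors, matched at positions -160 and -20, where -1 is the base before the annotated start. The letters TGACG, which form part of the full cAMP response element TGACGTCA, matched at -112. The CCAAT box matched on the opposite strand at -75. The full TGACGTCA, the TATA box TATAAA and the GC box GGGCGG had 0 matches each. Of 33469 rat promoter windows of the same length, 72.1% held an E-box match, 21.2% TGACG and 37.5% CCAAT. The shares were 1.83% for TGACGTCA, 14.2% for TATAAA and 33.1% for GGGCGG. These matches describe the letters of the window, and no binding was measured.

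Calca was among the abundant transcripts of both ganglia and was lower in TG in all 6 rats. Levels are CPM, the counts of the gene per 1e+06 counts in all genes of the library, scaled between libraries with TMM factors, which correct for differences in library composition. In the DRG libraries Calca was at 1323.0 CPM in rat R101, 1218 CPM in R102, 1298 CPM in R103, 1158 CPM in R104, 1158 CPM in R105 and 1227 CPM in R106. In the TG libraries of the same animals it was at 437, 390.3, 524, 385, 465 and 493 CPM, in the same order. The lowest DRG library was therefore above the highest TG library, and the ganglia did not overlap. The mean was 1230.5 ± 69.1 CPM in DRG and 449 ± 55.6 CPM in TG (SD, n = 6 each).

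**Figure D1:**
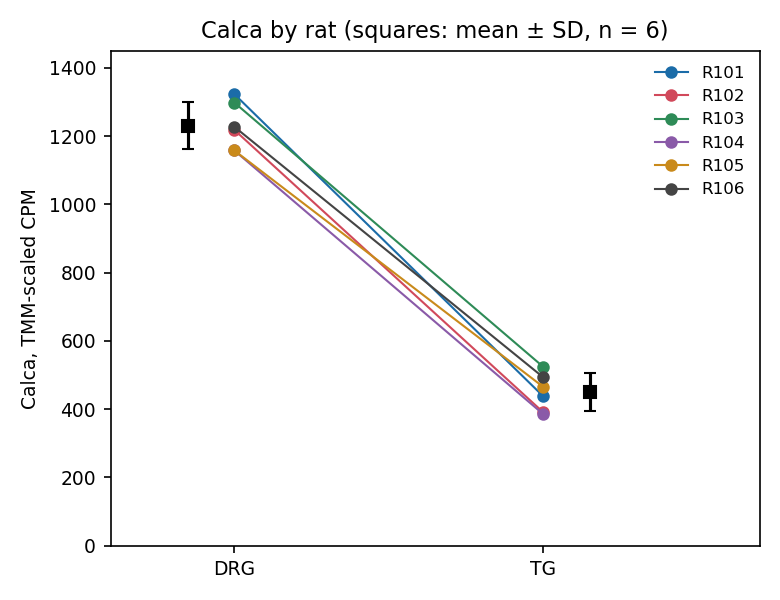
Level of Calca in TMM-scaled CPM (y axis, from 0) in the DRG and TG library of each rat, joined by a line per rat, with squares and bars for the mean ± SD of 6 libraries. All 6 lines fall from DRG, where the levels lie between 1158 and 1323.0 CPM, to TG, where they lie between 385 and 524 CPM.

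The log2 fold change of Calca in TG relative to DRG was -1.45 ± 0.073 (SE), with a 95% interval of -1.61 to -1.30 (edgeR quasi-likelihood test over all genes, adjusted p = 1.9e-09). In linear terms, Calca was 2.74-fold higher in DRG, with an interval of 2.46-fold to 3.06-fold. This fit did not use the pairing of libraries by rat. With the rat as a block the log2 fold change was -1.46, with an interval of -1.59 to -1.34. A test against a fold of 2, added after the data had been seen, also passed (edgeR, adjusted p = 1.6e-04). A difference between these ganglia was common, since 57.3% of the 14554 genes tested passed at an adjusted p under 0.05. Of all tested genes, 27.4% passed as lower in TG and 29.9% as higher, and 16.9% had every TG library below every DRG library. Those at least 2-fold lower in TG were 3.74%, or 545 genes. The balance of directions depended on the scaling, with 4354 genes higher and 3987 lower under TMM factors. It was 3870 higher and 4549 lower with all reads in the file as the library size, and 4960 higher and 3443 lower without scaling factors. Calca was lower in TG under each of these scalings. In dissected ganglia, the number of Calca-expressing neurons, the Calca RNA in each neuron and the RNA of other cells cannot be told apart.

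Within each animal the TG level was between 32.0% and 40.3% of the DRG level. The DRG level was 3.03-fold the TG level in R101, 3.12-fold in R102 and 3.01-fold in R104. It was 2.48-fold in R103, 2.49-fold in R105 and 2.49-fold in R106. The 6 ratios thus lay in 2 narrow sets of 3 rats each, a grouping seen in the values and not tested. The labels give no property that separates these rats. The mean difference of log2 CPM, TG minus DRG, was -1.46 ± 0.16 (SD, n = 6 rats), and it was negative in 6 of 6 rats. An exact sign-flip permutation test gave a two-sided p of 0.031, the smallest that 6 pairs allow (adjusted 0.031 over 2 measures, level and rank).

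The abundance rank, which needs no scaling between libraries, gave the same order. With rank 1 for the gene with the most counts in a library, Calca was at rank 65 in R101, 79 in R102, 67 in R103, 80 in R104, 84 in R105 and 81 in R106 in DRG. In TG of the same animals its ranks were 252, 306, 199, 306, 231 and 217. Every DRG rank was above every TG rank, with means of 76.0 ± 7.95 in DRG and 252 ± 45.4 in TG (SD, n = 6). Calca stood 132 to 227 places lower in TG than in DRG of the same rat. The mean loss was 176 ± 43.8 places (SD, n = 6 rats, exact sign-flip permutation test, two-sided p = 0.031, adjusted 0.031 over the same 2 measures). Among genes with at least 1 count in a library, Calca lay in the top 0.41% ± 0.042 in DRG and the top 1.33% ± 0.24 in TG (SD, n = 6).

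**Figure D2:**
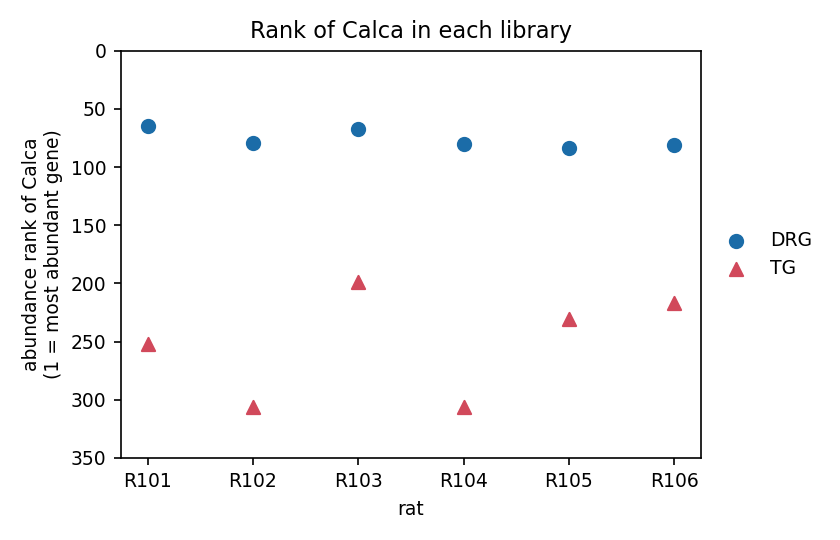
Abundance rank of Calca (y axis, 1 at the top for the most abundant gene) in each rat (x axis), with circles for DRG and triangles for TG libraries. DRG ranks lie between 65 and 84 and TG ranks between 199 and 306.

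Few abundant genes differed as much in the same direction. The median absolute log2 fold change of the 2171 genes with a mean of at least 100 CPM was 0.18. Of these genes, 13 had a log2 fold change as low as that of Calca or lower, Calca included. In either direction, 24 had a fold change of at least the size of Calca's. Of the 228 genes with a mean of at least 500 CPM, 5 had a log2 fold change as low or lower, Calca included. Over all 14554 tested genes, of every level, the number with a log2 fold change as low or lower was 239. In absolute terms Calca dropped by 782 CPM from DRG to TG, the 7th largest loss of all tested genes. It was the 6th most abundant in DRG of the 545 genes at least 2-fold lower in TG, and it held 3.77% of their summed CPM in DRG. These places are descriptions, given without a test.

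**Figure D3:**
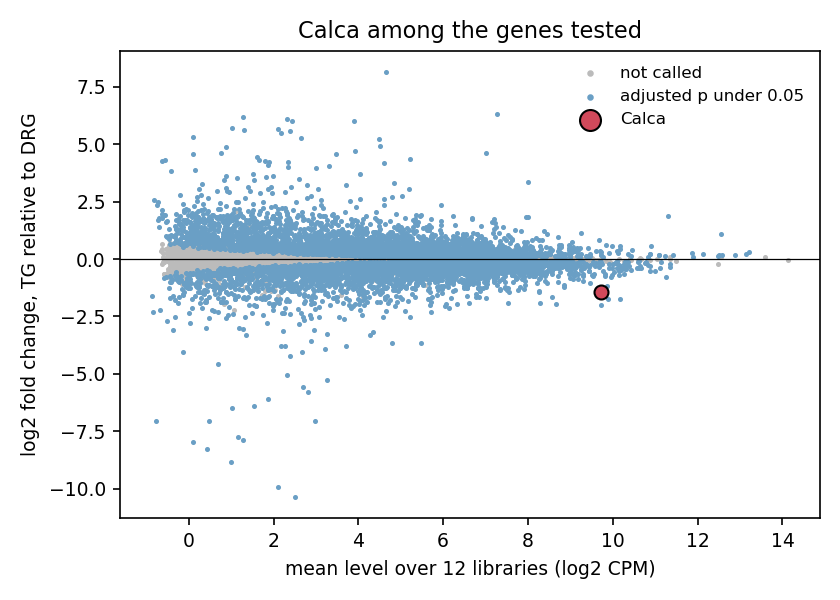
Each point is a tested gene, with its mean level over 12 libraries (x axis, log2 CPM) and its log2 fold change in TG relative to DRG (y axis), blue where the adjusted p was under 0.05. Calca, in red, lies at -1.45 at the lower right, where few genes of its level are found.

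The level of Calca had a larger SD between rats in TG than in DRG. In TG its log2 CPM had an SD of 0.18 (n = 6 rats), and the highest library was 1.36-fold the lowest. In DRG the SD was 0.081 (n = 6 rats), and the highest library was 1.14-fold the lowest. Of the 2171 genes with a mean of at least 100 CPM, 94.2% had a smaller SD than Calca in TG and 74.8% had a smaller one in DRG. The median SD of these genes was 0.066 in TG and 0.058 in DRG. The difference in spread between the ganglia was not tested. R103 and R106 were the highest and R104 and R102 the lowest in TG, whereas R101 and R103 were the highest and R105 and R104 the lowest in DRG.

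**Figure D4:**
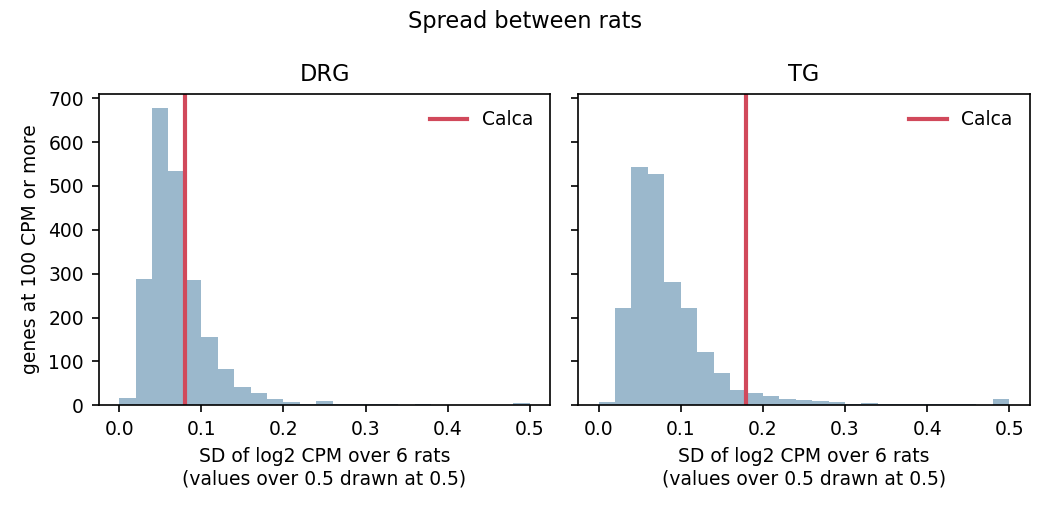
Histograms of the SD of log2 CPM over 6 rats (x axis) for the genes with a mean of at least 100 CPM (y axis, number of genes) in DRG and TG, with a red line at Calca. Calca lies at 0.081 in DRG and at 0.18 in TG, above 94.2% of these genes in TG.

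Counting error was a small part of this spread. Calca had 16457 to 21066 counts per library in DRG and 4972 to 7566 in TG. The 95% exact Poisson interval of a count spanned 1.46% either side in DRG and 2.52% in TG on average, which covers counting error only. Around the counts expected from each TMM-scaled library size, the variance between rats was 60.2 times that of counting alone in DRG and 95.1 times in TG. At 4972 counts or more in every library, the depth did not limit the comparison of the ganglia.

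A high level of Calca in TG did not go with a detectably high level in DRG of the same animal. The correlation of log2 CPM over the 6 rats was 0.42 (Pearson, exact permutation p = 0.38, adjusted 0.57 over 6 relations). The rank correlation was 0.37 (Spearman, exact permutation p = 0.50, adjusted 0.75). Without R103 and R104, the rats farthest from the median in TG, r was -0.18 over 4 rats. The positive value thus rested on those animals, and 6 rats are few for such a relation.

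The libraries held 11876597 to 15144027 counts in genes in TG and 13336016 to 17184211 in DRG, and no batch is named in the labels. Reads outside annotated genes made up 20.5% to 21.0% of the reads in TG files and 15.7% to 16.9% in DRG files, a share that also differed between the ganglia without overlap. With all reads in the file as the library size, the log2 fold change of Calca was -1.49. Reads aligned to several places, which would include those shared with Calcb, came to 12.3% to 13.2% in DRG files and 11.4% to 11.9% in TG files, and their part in the Calca result was not tested. A further tested gene was chosen from earlier results of these data as the lead of genes that vary together between TG libraries. Its variation between TG libraries was thus given by the choice and is no separate finding. In DRG it was nearly absent, at 0 to 0.37 CPM. This gene was at 49.7, 73.3, 52.3, 68.4, 30.6 and 25.9 CPM in TG of R101 to R106. Its correlation with Calca over the 6 TG libraries was -0.67 (Pearson, exact permutation p = 0.16, adjusted 0.57) and -0.60 (Spearman, exact permutation p = 0.24, adjusted 0.73). Without the 2 libraries farthest from the median of that gene r was -0.78 over 4 libraries. The relation did not pass the test, and the part of that gene in the Calca result was not tested. The other 4 relations, of Calca to the counts in genes and to the share of reads outside genes in each ganglion, did not pass either. The largest was to reads outside genes in DRG, with an r of 0.51 (exact permutation p = 0.31, adjusted 0.57). Its rho was 0.60 (exact permutation p = 0.24, adjusted 0.73). The relation to reads outside genes in TG had an r of -0.30 (exact permutation p = 0.50, adjusted 0.58) and a rho of -0.086 (exact permutation p = 0.92, adjusted 0.92) over 6 libraries. Without the 2 libraries farthest from the median share its r was -0.97 over 4 libraries, so its size rested on which libraries were included.

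The fold change of Calca changed little with the processing. Over the 28 alternatives, which include each rat and each library left out, it lay between -1.51 and -1.40, or 2.64-fold to 2.84-fold higher in DRG. The rat as a block gave -1.46 with an interval of -1.59 to -1.34.

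**Figure D5:**
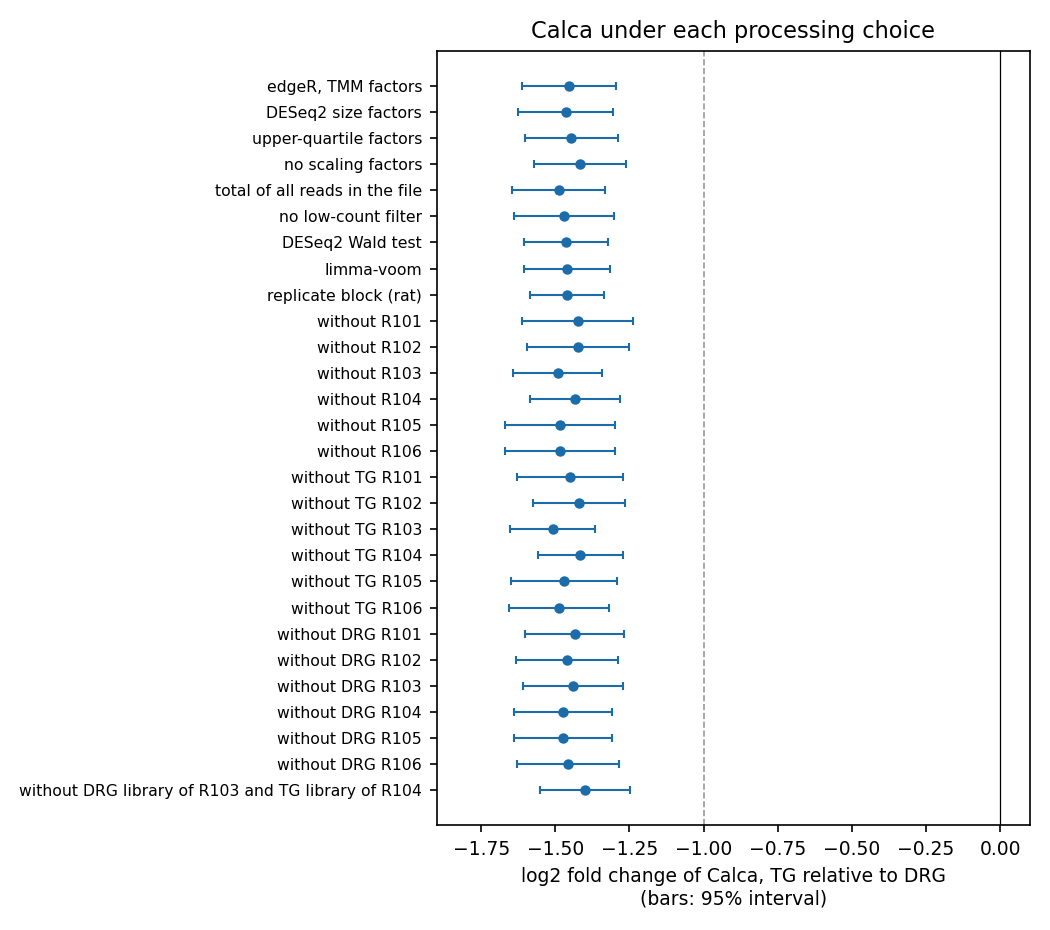
Log2 fold change of Calca in TG relative to DRG (x axis, with 95% intervals) for edgeR with TMM factors and for the alternatives that give an interval (y axis), with a dashed line at -1, a 2-fold difference. All values lie between -1.51 and -1.40, and no interval reaches the dashed line.

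The genes whose levels followed Calca most closely were sought among 9917 other tested genes with a mean of at least 10 CPM. Over the 12 libraries, 1238 of them had a correlation above 0.9 with Calca and 1179 one below -0.9, figures that carry the difference between the ganglia. After the mean of each ganglion was taken out, which leaves the differences between rats, 10 genes lay above 0.9 and 2 below -0.9. The most alike was ENSRNOG00000018986 (r = 0.94), although it was slightly higher in TG, at 39.9 ± 1.60 CPM against 34.4 ± 1.09 CPM in DRG (SD, n = 6). ENSRNOG00000001704 was next (r = 0.93) and was lower in TG like Calca, at 9.83 ± 1.03 CPM against 14.0 ± 0.51 CPM. Its correlation with Calca was 0.99 within TG and 0.56 within DRG, whereas that of ENSRNOG00000018986 was 0.97 and 0.98. The most opposed was ENSRNOG00000022162 (r = -0.96), at 33.0 ± 7.26 CPM in TG against 20.9 ± 0.91 CPM. Its own values fell as Calca rose in TG (r = -0.996) and in DRG (r = -0.83). These correlations were the extremes of 9917 over 12 libraries and are given as descriptions.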

How the data were processed

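Per the labels' protocols, poly(A) RNA was sequenced (Illumina HiSeq). Raw read counts by gene identifier were deposited for each library, made with STAR and HTSeq on the rat build Rnor_6.0 per the submitters' processing notes. Neither versions nor annotation nor strand use is named there, so antisense or overlapping reads may be included. The 5 rows of reads given to no gene (33.8% of reads in a TG file and 30.3% in a DRG file on average) were left out. The RefSeq table of rat genes (GRCr8) held 0 of the 32662 identifiers, so the 19 gene lists and the ratio of Calca to neuronal genes were not analysed here.

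Counts were tested in R 4.3.3 with edgeR 4.0.16: filterByExpr by tissue (14554 genes), TMM factors, robust quasi-likelihood test with tissue as the only term, Benjamini-Hochberg adjustment over all tested genes, called under 0.05. SEs are the absolute log2 fold change over the square root of F. Log2 CPM used a prior count of 2. The code was tested on simulated data. Single values were tested with exact two-sided permutation tests. Alternatives were limma 3.58.1 (voom), DESeq2 1.42.0, other scalings, no filter, the rat as a block and libraries left out.

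The rat identifier in the labels pairs the libraries. Over genes, deviations from the tissue means correlated at 0.23 to 0.34 within rats and -0.14 to 0.10 between rats. Replicate libraries differed 3.97 to 13.3 times more than by sampling noise, so none was a copy. Without symbols, named genes were limited to Calca and the identifiers most and least correlated with it after tissue means were taken out. Calca, the lists and the gene nearly absent from DRG were chosen with earlier results of these data known.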

Additional observations from a re-analysis of the deposited data

How the results depend on the processing

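The lower level of Calca in TG kept its direction and passed in all 28 alternatives run, with a largest adjusted p of 1.6e-04 for the test against a fold of 2. That test and the fit without the DRG library of R103 and the TG library of R104 (log2 fold change -1.40) were chosen after seeing the data. Leaving out a rat gave -1.49 to -1.42, and leaving out a library -1.51 to -1.42. The replicate block (rat) gave -1.46 (edgeR, adjusted p = 1.9e-08), called 8836 genes in place of 8341, and did not change the call of Calca. Over the 27 alternatives for it, the number of changed genes was 7703 to 8881. The lowest came without R101 and the highest without the low-count filter, where more genes were tested. These counts are therefore not all out of the same number of genes. The per-rat difference was -1.50 to -1.42 over its alternatives. Leaving out a rat gave -1.49 to -1.43, and for the rank difference 165.6 to 184.6 places, with an exact permutation p of 0.063 each, the smallest that 5 rats allow. Without the pairing by rat, the exact permutation p of level and rank was 0.0022, the smallest that 6 against 6 libraries allow. The same-rat correlation was 0.17 to 0.62 with a rat left out and passed in none of its 7 alternatives (smallest exact permutation p = 0.28). The ratio of Calca to neuronal genes and its alternatives were not run, as no symbols were matched. Scaling moved the median log2 fold change of all genes between -0.025 and 0.048. The count of a gene row cannot separate CGRP from calcitonin transcripts, and its depth was not a limit here.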

Other observations

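None (0) of 13 sets of 6 values examined for a value far from the others stood apart. The sets covered the level, rank and counts of Calca, library size and reads outside genes in each ganglion, and the per-rat difference of Calca.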
